A study of Mus musculus with 6 samples.

Results

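The transcripts described here are 8 output genes of ERK signalling: Etv1, Etv4 and Etv5, which form the PEA3 subfamily of ETS transcription factors, together with Lif, Phlda1, Epha2, Il17rd and Kcnn4. They were taken by gene name from the annotation of the array, which carries 34650 gene names, and 10 probes bear these names. Bone marrow cells of mice lacking Spred1 (KO, 3 arrays) were compared with those of wild-type mice (WT, 3 arrays), all labelled as C57BL/6 and sorted as cells without lineage markers or CD48 that carry c-Kit and Sca-1, a gate rich in haematopoietic stem cells and early progenitors. Each sample was read on its own 1-colour array. The deleted part of Spred1, the age and sex of the mice and any pooling of animals are not given in the sources used here, nor whether the numbered samples of a genotype came from separate animals, so p-values below measure the spread between samples, which may be technical. The 8 genes were selected on the KO and WT levels of these same probes on these same arrays, already known when the set was drawn up, so their differences between genotypes are given as a description, without a test.

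ERK is the last kinase of the Ras-Raf-MEK cascade, through which growth factor receptors such as c-Kit change transcription. Spred1 dampens this cascade by bringing neurofibromin, which switches Ras off, to the membrane. Some of the 8 transcripts, such as those of Etv4 and Etv5, are common readouts of ERK activity. The PEA3 factors lie at a node of the pathway: the repressor Capicua holds their genes down until ERK signalling lifts it, and the ubiquitin ligase built from DET1 and COP1 removes the proteins.

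Levels are on a log2 scale on which 0 is the 75th percentile of the probes of an array, and a level compares arrays for a given probe, not probes with each other. Of the 8 genes, 7 passed the filter that left 19611 features, which asks that the scanner software call a probe well above background on the 3 KO arrays, the 3 WT arrays or both. Il17rd did not pass it. With limma over these features, 2 were higher and 2 lower in KO at an adjusted p under 0.05, which is 0.0204% of all. That 0 of the 7 genes were among them is no test of these genes, as they were chosen on this contrast. Arrays resembled each other closely, with correlations across features of 0.988 to 0.995, and no spot was saturated. The 3 Spred1 probes moved apart, with KO minus WT differences of 2.44, -0.14 and -0.98, and as the deleted part is unknown they do not check the labels. All 8 transcripts on the list for the gate were well above background on every array, among them Kit, Ly6a (Sca-1) and Cd34. That of Cd48, whose protein the gate excludes, was well above background on every array too.

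The 300-base windows around annotated starts, with 250 bases before the start and 50 from it on, are shown for genes whose levels stood apart between genotypes (Etv1, Etv5, Lif) and, for contrast, Epha2, whose levels overlapped. They are RefSeq sequences on build GRCm38.p6, on the strand of the gene, and capitals mark every match of the motifs searched. Windows existed for 6 of the 8 genes, 8 windows in all; Etv4 and Phlda1 had none in the table used. For Etv1 and Etv5, which have 2 windows each, the window with matches is printed; the other had no match to any motif searched.
Etv1, chr12:38779832-38780131, plus strand: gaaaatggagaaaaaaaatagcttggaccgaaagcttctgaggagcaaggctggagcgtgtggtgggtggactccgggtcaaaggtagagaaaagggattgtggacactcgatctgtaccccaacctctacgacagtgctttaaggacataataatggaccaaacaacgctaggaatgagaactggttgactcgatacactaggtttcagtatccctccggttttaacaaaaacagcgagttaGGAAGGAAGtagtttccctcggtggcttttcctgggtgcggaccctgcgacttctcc
Etv5, chr16:22438319-22438618, minus strand: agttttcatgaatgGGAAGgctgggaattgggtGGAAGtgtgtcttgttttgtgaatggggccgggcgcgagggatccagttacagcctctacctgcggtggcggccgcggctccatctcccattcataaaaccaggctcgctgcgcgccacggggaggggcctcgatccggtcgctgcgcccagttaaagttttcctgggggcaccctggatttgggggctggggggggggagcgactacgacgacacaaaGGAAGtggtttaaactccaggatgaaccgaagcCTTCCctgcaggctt
Lif, chr11:4257318-4257617, plus strand: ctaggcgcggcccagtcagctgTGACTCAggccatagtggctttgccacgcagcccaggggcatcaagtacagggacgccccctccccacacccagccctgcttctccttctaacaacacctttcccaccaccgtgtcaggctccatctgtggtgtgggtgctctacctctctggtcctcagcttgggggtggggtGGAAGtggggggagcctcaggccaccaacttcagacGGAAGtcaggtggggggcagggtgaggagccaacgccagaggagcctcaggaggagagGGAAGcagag
Epha2, chr4:141300971-141301270, plus strand: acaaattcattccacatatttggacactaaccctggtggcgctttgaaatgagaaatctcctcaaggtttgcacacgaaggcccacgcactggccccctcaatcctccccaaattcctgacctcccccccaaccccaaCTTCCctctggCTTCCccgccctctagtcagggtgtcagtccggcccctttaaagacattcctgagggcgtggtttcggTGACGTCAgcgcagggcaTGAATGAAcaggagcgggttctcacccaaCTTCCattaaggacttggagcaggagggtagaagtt
The motifs, searched on both strands, were the core of ETS factor sites (GGAAG), the AP-1 site (TGANTCA), the cyclic AMP response element (TGACGTCA), 4 forms of the Capicua octamer (TGAATGAA, TGAATGGA, TCAATGAA and TCAATGGA) and the serum response element, bound by SRF. The AP-1 letters hold any base in the middle, and matches of 1 motif may overlap each other, as the pair beside the Etv1 start does.

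The ETS core was present in 6 of the 8 windows, against 71.4% of all 32851 windows of the table. The Etv1 window held 2 overlapping copies, at -7 and -3 from the start, and the Etv5 window held 4. Lif had 3 ETS cores, of which those beginning at -54 and -18 lie before the start, and was the gene with an AP-1 match, at -228; 7.81% of all windows hold that motif. Epha2 held a cyclic AMP response element at -33 (1.79% of all windows) and a Capicua octamer at -15 (3.84% of all windows hold any of the 4 forms). None of the 8 windows matched the serum response element, which is in 1.63% of all windows. The map of motif matches places these letters along each window; a match is no evidence of a bound site.

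**Figure D1:**
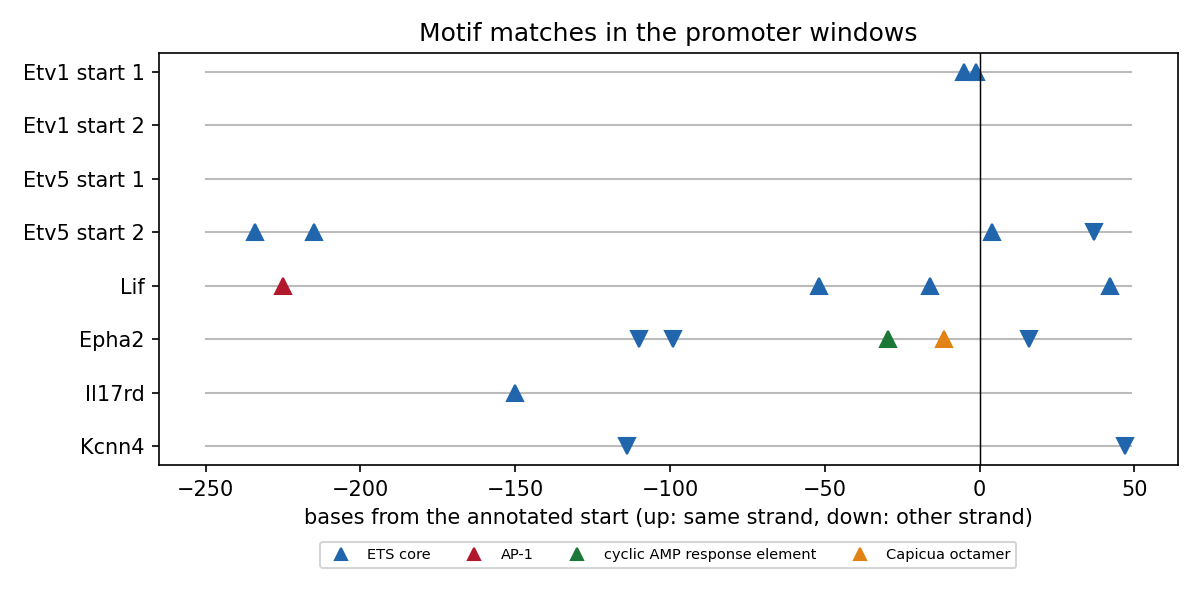
Motif matches in the 8 promoter windows of 6 genes, by distance in bases from the annotated start; triangles pointing up lie on the strand of the gene and those pointing down on the other. ETS cores (blue) stand in 6 windows, the AP-1 match (red) in Lif alone, and the cyclic AMP response element (green) and the Capicua octamer (orange) in Epha2 alone.

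Among the PEA3 factors, Etv1 and Etv5 had clearly higher levels in KO than in WT and Etv4 slightly higher levels. Lif was the other gene of the 8 whose levels stood apart. Phlda1, Epha2 and Kcnn4 overlapped between the genotypes. In all, the KO arrays lay above the WT arrays for 4 of the 7 genes, against 9.52% of all features, and for 0 of 7 below them, against 10.0%. The mean was higher in KO for 6 of the 7, against 48.8% of all features. The median difference of the 7 was 0.20 and that of all features -0.0062. All these counts use the contrast by which the genes were chosen. Lif, moreover, passed the filter through its KO arrays alone, as it was well above background on 3 KO arrays and 1 WT array. In bulk RNA, fewer cells of a type and less RNA per cell cannot be told apart.

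Etv1, a factor that ERK also phosphorylates directly, had levels of -0.79, -1.15 and -0.61 on KO arrays 1 to 3, against -1.89, -2.09 and -2.38 on WT arrays 1 to 3. Every KO value lay above every WT value, with 0.75 between the nearest of them. The means were -0.85 ± 0.27 in KO and -2.12 ± 0.25 in WT (SD, n = 3 each), a difference of 1.27 ± 0.18 SE or 2.42-fold. These are values of the probe at chromosome 12, 39593054 to 39593113 (build mm9, as are all probe positions). The other Etv1 probe, at 39594622 to 39594681, was near background on all 6 arrays and gave no level to compare. Averaged over both probes, the Etv1 difference was 0.60, and with normexp background correction and quantile normalization it was 0.83.

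Etv5, the PEA3 factor with a known part in stem cells of the male germ line, measured 3.21, 3.04 and 3.34 in KO and 2.33, 2.52 and 2.67 in WT. The groups did not overlap, and the nearest values were 0.37 apart. Its means were 3.20 ± 0.15 in KO and 2.51 ± 0.17 in WT (SD, n = 3 each), a difference of 0.69 ± 0.13 SE or 1.61-fold, on its 1 probe (chromosome 16, 22381387 to 22381446). Etv5 was the steadiest of the 4 separated genes across slides, with differences of 0.70 within slide 1 and 0.67 within slide 2.

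Etv4, the founding member of the subfamily, measured -1.36, -1.62 and -1.48 in KO and -1.67, -1.66 and -1.74 in WT. KO and WT again did not overlap, but KO replicate 2 lay within 0.05 of the highest WT array. The difference was 0.20 ± 0.094 SE or 1.15-fold, from means of -1.49 ± 0.13 in KO and -1.69 ± 0.042 in WT (SD, n = 3 each). This probe lies at chromosome 11, 101631057 to 101631116, and a further probe at 101631322 to 101631381 was near background on all 6 arrays.

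Lif encodes leukaemia inhibitory factor, a secreted cytokine of the interleukin-6 family. Its levels were -2.99, -3.54 and -3.44 in KO, against -3.88, -4.44 and -5.02 in WT, and the groups were 0.35 apart at their nearest. The probe (chromosome 11, 4172032 to 4172091) was well above background on 3 KO arrays but on 1 WT array, replicate 1, so the WT mean includes 2 arrays near background. On these measured values the difference was 1.13 ± 0.29 SE or 2.18-fold, and its size depends on those dim arrays. With each of them set at the lowest signal called well above background on that array, a choice made after seeing the data, the difference was 0.91 or 1.88-fold. Some probes above that signal were not called, so this is no lower bound. With normexp background correction, whose offset compresses dim signals, and quantile normalization it was 0.23.

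Phlda1, a pleckstrin-homology-like protein that is quickly induced by growth factors, measured 0.21, 0.51 and 0.40 in KO and 0.33, 0.26 and 0.30 in WT (chromosome 10, 110945310 to 110945369). The lowest and the highest of the 6 values were both KO arrays. The difference was 0.077 ± 0.10 SE.

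Epha2 encodes a receptor tyrosine kinase for ephrin-A ligands. Its levels were -2.75, -1.82 and -3.07 in KO and -2.51, -1.88 and -3.38 in WT (chromosome 4, 140885139 to 140885198). The numbered samples were alike across genotypes: replicate 2 was highest and replicate 3 lowest in both. The spread within each genotype, 0.65 in KO and 0.75 in WT (SD, n = 3 each), exceeded the difference of 0.043 ± 0.45 SE. Of the 7 genes, Epha2 was the one whose direction was not stable: leaving arrays out singly, the difference ran from -0.35 without WT replicate 3 to 0.40 without WT replicate 2.

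Kcnn4, a potassium channel opened by calcium, was the 1 gene of the 7 with a lower mean in KO, and its values were tight. They were 2.77, 2.63 and 2.70 in KO and 2.86, 2.75 and 2.82 in WT, a difference of -0.11 ± 0.083 SE. KO replicate 1 lay above WT replicate 2, so the groups overlapped. The annotated span of its probe, chromosome 7, 25169184 to 25169782, is longer than the probes of the other genes.

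Il17rd, also known as Sef, is a membrane protein that blocks signalling from FGF receptors to ERK. Its probe (chromosome 14, 27920311 to 27920370) gave -5.63, -6.49 and -6.60 in KO and -6.70, -6.51 and -6.69 in WT, and was well above background on 0 of 6 arrays. No difference can be read from it.

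**Figure D2:**
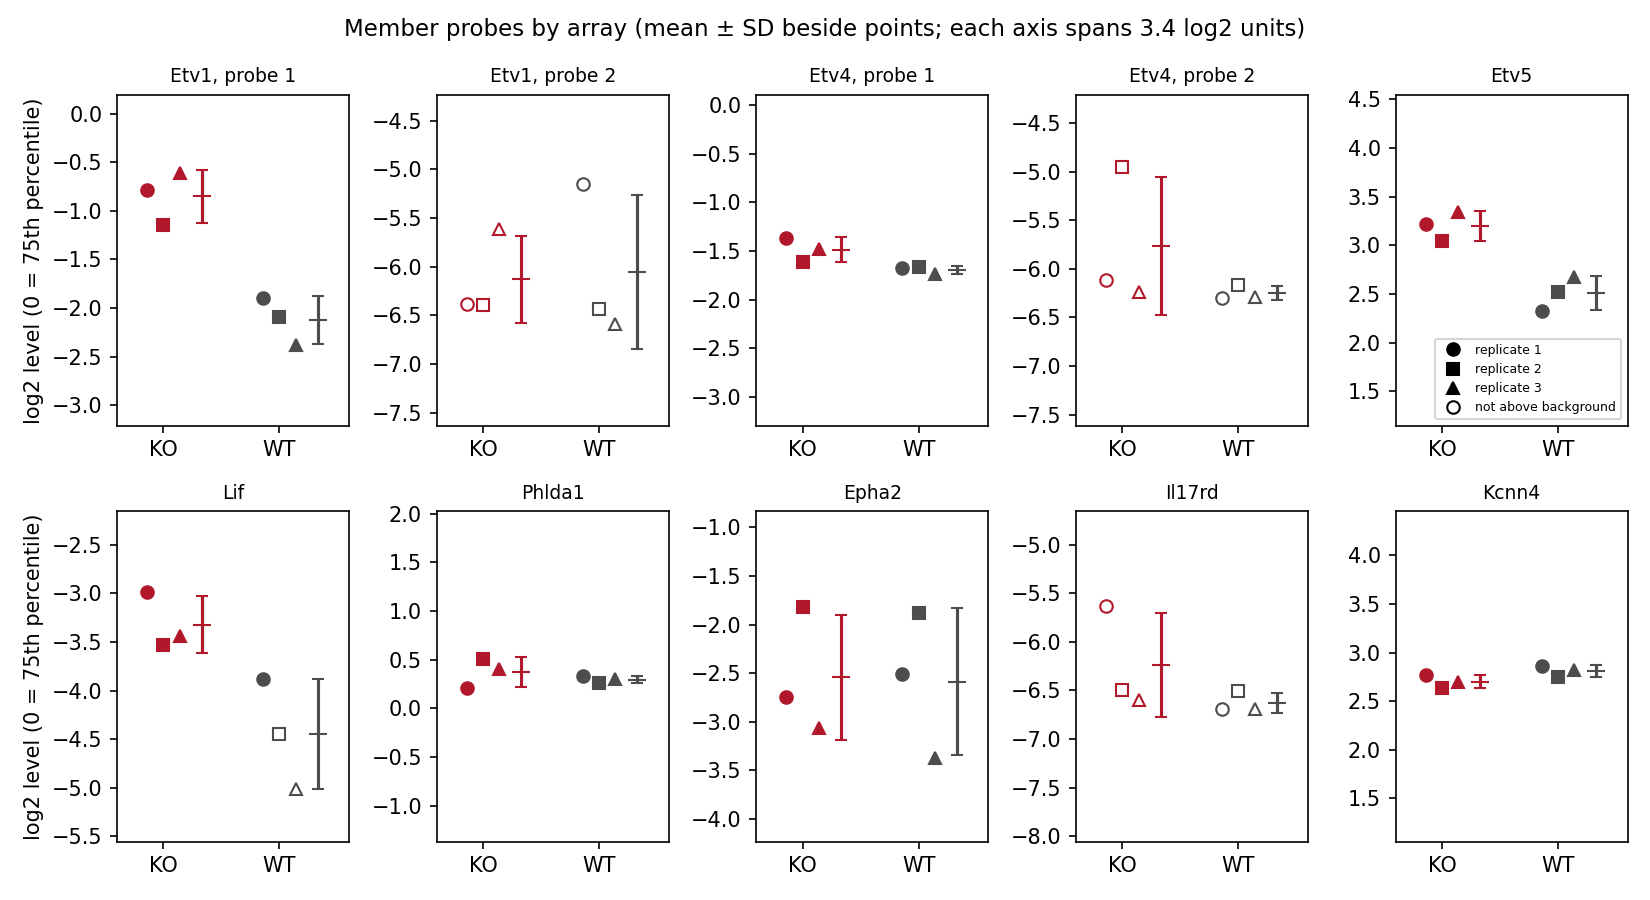
Log2 levels of the 10 probes on each array, KO left and WT right, with the mean and SD beside the points; open symbols mark arrays on which the probe was not well above background. KO points lie above all WT points for Etv1 probe 1, Etv4 probe 1, Etv5 and Lif, while Epha2 follows the replicate number in both genotypes.

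The 4 separated genes did not share their order within a genotype, except at the low end of the KO arrays. KO replicate 2 was the lowest KO array for Etv1, Etv4, Etv5 and Lif. In WT, Etv1 and Lif were highest in replicate 1 and lowest in replicate 3, whereas Etv5 was highest in replicate 3 and lowest in replicate 1. In a principal component analysis, the leading component (36.4% of the variance) placed KO replicate 2 at -4.37, between the other KO arrays at -23.4 and -20.2 and the WT arrays at 5.56 to 35.8; its part in the order of these genes was not tested. Without KO replicate 2 the Etv1 difference was 1.42.

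The arrays lay on 2 slides, slide 1 with replicates 1 and 2 of both genotypes and slide 2 with replicate 3. Etv1 differed by 1.03 within slide 1 and by 1.77 within slide 2, and Lif by 0.90 within slide 1. Lif was not well above background on the WT array of slide 2. With that array set at its lowest signal called well above background, Lif was 1.97-fold higher in KO there. Slide 2 holds 1 array per genotype, so these slide 2 values have no replicate. Etv4 differed by 0.18 and 0.26 and Phlda1 by 0.063 and 0.10 within slides 1 and 2, and Kcnn4 by -0.10 and -0.12. Epha2 changed sign, at -0.091 within slide 1 and 0.31 within slide 2.

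**Figure D3:**
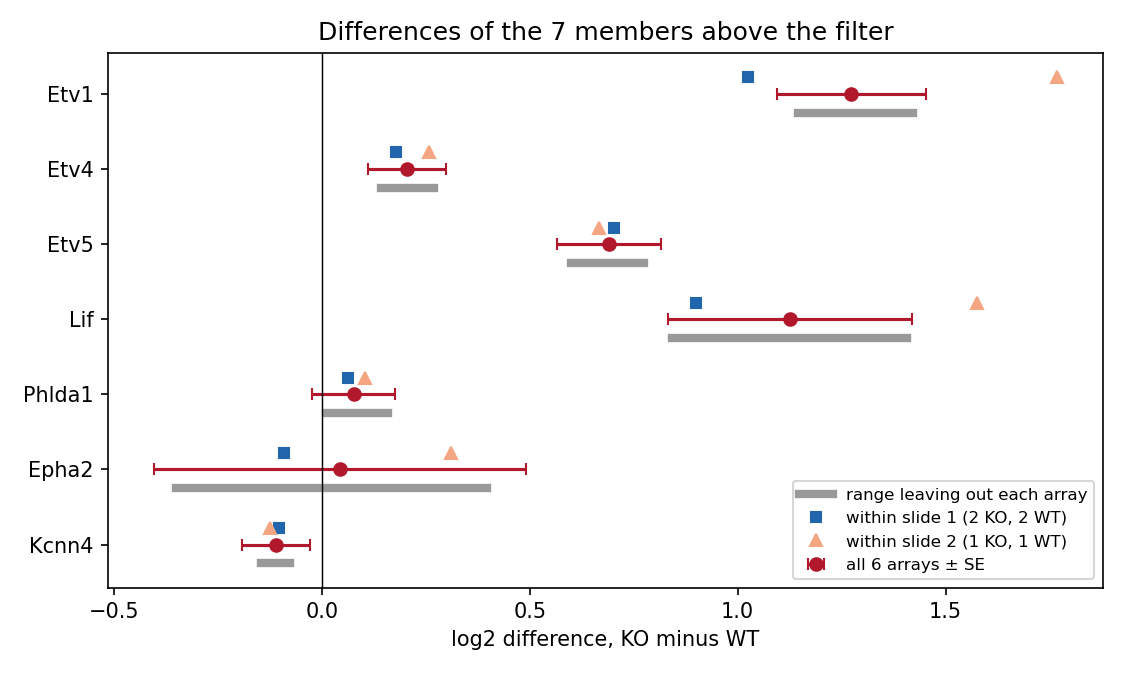
KO minus WT log2 differences of the 7 genes above the filter, with the SE over 6 arrays (red), the values within each slide (blue squares, orange triangles) and the range when each array is left out in turn (grey bars). The grey bars of Etv1, Etv5 and Lif stay above 0.5, and that of Epha2 crosses 0. The slide 2 triangle of Lif and the right end of its bar, without WT replicate 1, are set against WT arrays near background and are no exact sizes.

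Against all 19611 features, ordered from the most positive difference, Etv1 stood at place 26, Lif at 50 and Etv5 at 271. The place of Lif rests on a WT mean with 2 of 3 arrays near background. With these set at the lowest signal called well above background, its place was 109. Etv4 stood at place 3516, Phlda1 at 6705, Epha2 at 7917 and Kcnn4 at 14249. The plot of all differences shows Etv1, Lif and Etv5 in the right tail and the other 4 within the bulk.

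**Figure D4:**
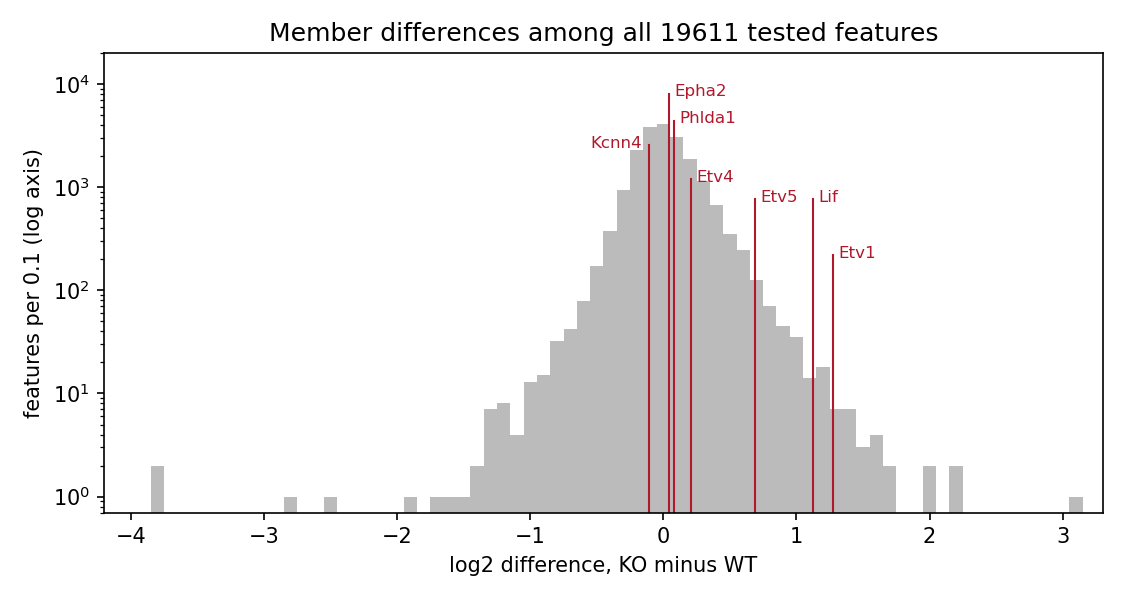
Number of features per 0.1 of log2 difference (KO minus WT) among 19611 tested, on a log axis, with lines at the 7 genes. Etv5 at 0.69, Lif at 1.13 (measured, with 2 of 3 WT arrays near background) and Etv1 at 1.27 lie in the right tail.

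None of the other ERK feedback and output genes measured on the lists passed the test. Of 41 further genes listed, 34 were measured, and 0 passed the adjusted threshold of limma in either direction (smallest adjusted p = 0.277). At an unadjusted p under 0.05, 2 were higher, against 7.06% of all features, and 2 lower, against 5.12%. Means were higher in KO for 16 and lower for 18, with a median difference of -0.025.

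Among the 11 measured feedback inhibitors, which act on the cascade at the level of receptors, Ras or ERK, Spred2 was the 1 gene whose groups did not overlap. Its KO arrays lay above its WT arrays, as was the case for 9.52% of all features. This relative of Spred1 measured -0.26, -0.30 and 0.20 in KO and -0.67, -0.65 and -0.50 in WT (difference 0.49 ± 0.15 SE, limma adjusted p = 0.37). Dusp4, a phosphatase that removes phosphate from ERK in the nucleus, differed by 0.32 ± 0.15 SE (adjusted p = 0.437) and overlapped. Dusp6, the phosphatase of cytoplasmic ERK and a common readout beside Etv4 and Etv5, was named after its values were seen and differed by 0.20 ± 0.14 SE (adjusted p = 0.548). Lrig3 and Errfi1, which restrain growth factor receptors, differed by -0.26 ± 0.16 SE and -0.16 ± 0.20 SE, with overlap in both (adjusted p of 0.515 and 0.744). Spry3, Spry4 and Spred3 were not measured above the filter.

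Among the 23 measured other output genes, Bcl2l11 had the smallest p (0.76 ± 0.13 SE, limma adjusted p = 0.277). It encodes Bim, a death-promoting relative of Bcl2 whose protein ERK marks for removal. Its KO values of -0.61, -0.70 and -0.42 lay above its WT values of -1.27, -1.20 and -1.56. A second Bcl2l11 probe, also well above background, differed by 0.21 ± 0.27 SE and overlapped. Upp1, a uridine phosphorylase, differed by 0.27 ± 0.13 SE (adjusted p = 0.452). The cytokine gene Gdf15 differed by -0.82 ± 0.26 SE with overlap (adjusted p = 0.376), and the immediate early gene Arc by -0.48 ± 0.14 SE without overlap (adjusted p = 0.363). The immediate early genes Fos, Egr1 and Myc were also named after their values were seen. They differed by -0.46 ± 0.33 SE, -0.27 ± 0.26 SE and -0.48 ± 0.22 SE, each with overlap (limma adjusted p of 0.571, 0.661 and 0.434). Of the 23 genes, 10 had a higher mean in KO, against 48.8% of all features, and 13 a lower mean.

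Of the other ETS factors, 17 were measured, 0 passed, and the median difference was -0.086. Fev was the exception in size: it was well above background on 3 KO arrays and on no WT array (limma adjusted p = 0.359). Fev was 2.0-fold higher in KO with each WT array at the lowest signal called well above background there, or at its own if higher. This is no lower bound: on WT replicate 1 Fev, at -4.44, was not called, although the lowest called signal there was -4.50. Fev encodes an ETS factor of serotonin neurons, related to Fli1 and Erg. Elk1, a partner of SRF and a direct ERK substrate, differed by 0.23 ± 0.096 SE (adjusted p = 0.406), and Fli1 by -0.17 ± 0.10 SE (adjusted p = 0.508) and Ets2 by -0.12 ± 0.080 SE (adjusted p = 0.532).

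Genes that act on the PEA3 factors showed small differences. Of 12 measured, 0 passed and the median difference was -0.038. All KO arrays lay above all WT arrays for 1 of them, Crebbp at its brighter probe (9.52% of all features). They lay below for 2, Med25 and Rfwd2 (10.0% of all features). Rfwd2, the COP1 gene under its older name, was named after its values were seen and differed by -0.12 ± 0.085 SE (limma adjusted p = 0.55). The repressor gene Cic differed by -0.029 ± 0.099 SE (limma adjusted p = 0.912) and the ligase gene Det1 by -0.027 ± 0.10 SE (adjusted p = 0.92), although its 2 dimmer probes gave -0.20 and 0.31. Crebbp, a coactivator, differed by 0.28 ± 0.12 SE (adjusted p = 0.421), with 0.061 at its second probe, and Trib2 by 0.15 ± 0.21 SE (adjusted p = 0.772). Med25, the Mediator subunit that PEA3 factors contact, differed by -0.22 ± 0.11 SE (adjusted p = 0.444) and Cul4a by -0.23 ± 0.13 SE (adjusted p = 0.487), with -0.071 at its second probe.

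For Lif, the signal-transducing receptor chain was measured and the ligand-binding chain was not. Il6st, the chain shared by interleukin-6 family receptors, measured -0.32, -0.07 and -0.14 in KO and 0.34, 0.23 and 0.24 in WT. All its KO values lay below its WT values (difference -0.45 ± 0.096 SE, limma adjusted p = 0.359). Lifr had 3 probes, all near background on all 6 arrays. The related cytokine gene Osm differed by -0.72 ± 0.20 SE (adjusted p = 0.363), Il6ra by 0.21 ± 0.091 SE (adjusted p = 0.419) and Il11 by 0.12 ± 0.24 SE (adjusted p = 0.839). Of the 10 measured genes of this list, 0 passed and the median difference was -0.16.

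Relatives of the other genes gave 0 calls too. Of 13 measured ephrins and Eph receptors the median difference was 0.010, with Ephb4 at 0.44 ± 0.31 SE, Ephb2 at 0.21 ± 0.11 SE, the Epha2 ligand gene Efna1 at -0.49 ± 0.24 SE and Efna2 at -0.17 ± 0.12 SE (limma adjusted p of 0.443 to 0.566). A second Ephb4 probe, well above background on all 6 arrays, gave 0.053. Of 10 interleukin-17 and FGF receptor genes and their adaptors the median was 0.016. In that list the adaptor gene Traf3ip2 differed by 0.45 ± 0.13 SE without overlap (adjusted p = 0.363). Its receptor gene Il17rb, well above background on 3 KO arrays and 2 WT arrays, differed by 0.88 ± 0.42 SE with overlap (adjusted p = 0.441). Il17ra differed by -0.080 ± 0.073 SE and Frs2 by -0.063 ± 0.11 SE (adjusted p = 0.65 and 0.809). Among 8 measured genes around Kcnn4 (median -0.066), Calm2 and Calm3, which encode calmodulin, the calcium sensor of the channel, differed by -0.13 and 0.055, and its inhibitor gene Trim27 by -0.11 (adjusted p of 0.521 to 0.852). The second probes gave -0.10 for Calm2 and -0.086 for Calm3, opposite in sign to the first for Calm3. Phlda2, a paralogue of Phlda1, had lower values without overlap (-0.39 ± 0.10 SE, adjusted p = 0.363), and Phlda3 differed by -0.014 ± 0.19 SE (adjusted p = 0.978).

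**Figure D5:**
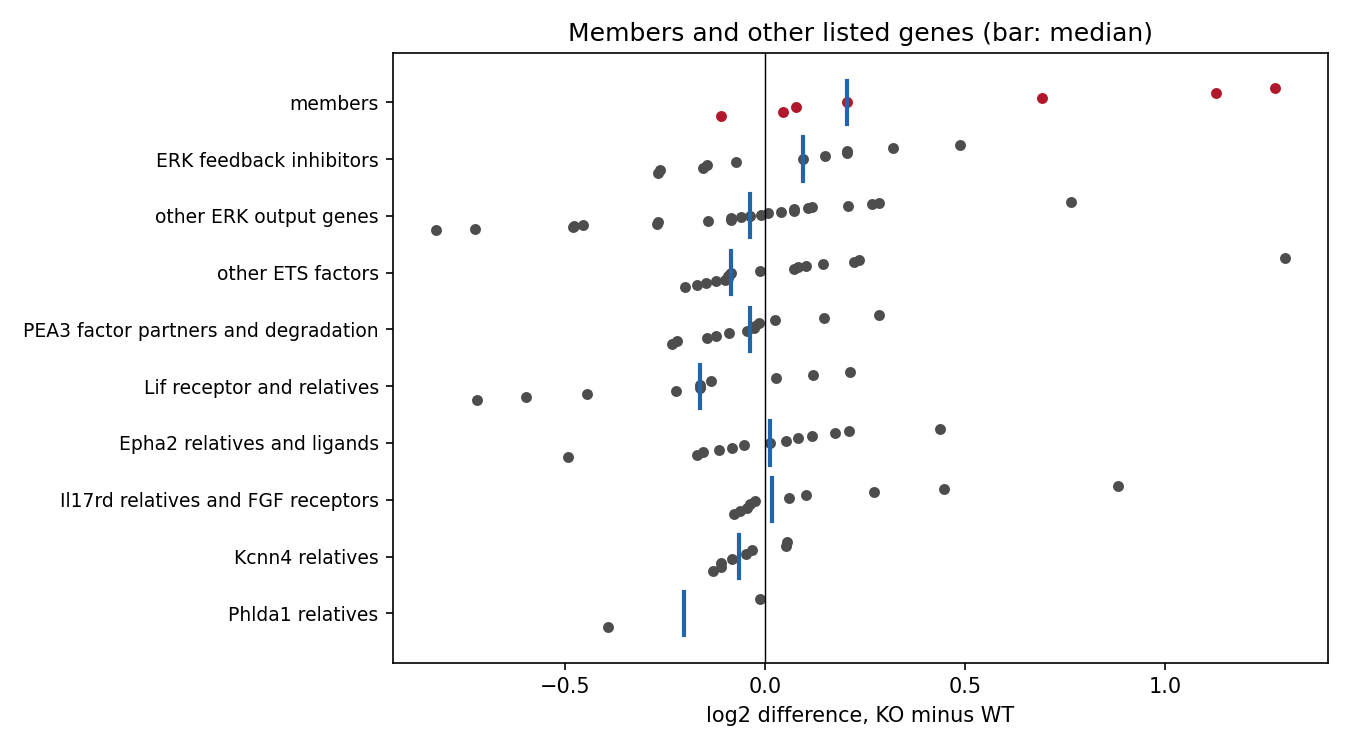
KO minus WT log2 differences of the 7 genes (red) and of each list of further genes (grey), with the median of each list as a blue bar. Etv5, Lif and Etv1 lie beyond 0.6 at the right of the top row, Fev (measured difference 1.30) among the other ETS factors, and most other points lie within 0.5 of 0.

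The features most like the genes across arrays were found from the mean of their standardised levels over the 7 genes. That mean was 0.49, 0.36 and 0.42 on KO arrays 1 to 3 and -0.16, -0.38 and -0.73 on WT arrays 1 to 3. Of 19599 other features, the named ones with the highest correlation were Speer5-ps1 (r = 0.995), the acute phase protein gene Saa1 (0.992), Rufy4 (0.979) and Eva1a (0.974). The 6 arrays behind each r fall into 2 genotypes and share 2 slides, and these features were picked as the highest of all, so r is a description. Their own differences ran from 0.21 for Rufy4 to 0.64 for Speer5-ps1, with limma adjusted p of 0.359 to 0.403.

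Markers of other cell types differed between arrays. All 12 neutrophil markers were measured, and their summed level, in units of the 75th percentile, was 338 to 442 in KO and 103 to 530 in WT, where replicate 1 was the low array. Erythroid markers (8 of 10 measured) summed to 27.8 to 31.5 in KO and 15.6 to 52.5 in WT, where replicate 1 was again the low array. Without WT replicate 1 the differences were 1.39 for Etv1 and 0.60 for Etv5. Lif was then well above background on 0 of 2 WT arrays. With each set at the lowest signal called well above background there, Lif was 2.13-fold higher in KO. Monocyte and macrophage markers (11 of 12 measured) summed to 46.6 to 52.1 in KO and 42.0 to 44.8 in WT, a sum that weighs bright genes most. Their median log2 level relative to the WT means overlapped, at 0.35, 0.52 and 0.21 on KO arrays 1 to 3. On WT arrays 1 to 3 that median was -0.53, 0.20 and 0.45. Of the 11 genes, 2 had all KO arrays above all WT arrays (9.52% of all features) and 0 the reverse (10.0%). Stromal and endothelial markers (7 of 11 measured) summed to 18.6 to 23.1 in KO and 15.3 to 18.8 in WT, with Col1a1, Col3a1, Cdh5 and Bglap below the filter. The part of these cell types in the levels of Etv1, Etv5 and Lif was not tested.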

How the data were processed

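RNA was labelled with Cy3 and hybridised to 1-colour arrays, per the labels. Per the file headers and the submitters' processing notes, the software that read the spots was Agilent Feature Extraction, version 10.7.3.1. It subtracted background, and the result was deposited as processed signal intensity per spot, without scaling between arrays. Here control spots and outlier spots were left out, spots of a probe were averaged, and log2 intensity was centred on the 75th percentile of each array. A gene name was represented by its probe of highest mean over all arrays, and the filter was then applied to that probe. KO and WT were compared with the lmFit and eBayes functions of limma (version 3.58.1, R 4.3.3) over 19611 features with Benjamini-Hochberg adjustment, tested on simulated data. With 3 against 3 arrays, their number limits the precision, and an exact permutation test of a single value could not go below 0.1.

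The genes and lists were chosen with earlier results of these data known. From each list, the 2 measured genes of smallest p in each direction were named, besides Lifr, Il6st, Cic and Det1, and the 4 features with a symbol most like the 8 genes; 1 gene that this rule names is not reported here. Standard errors of genes come from that fit. Alternatives were quantile normalization, normexp (offset 50) with quantile normalization, the authors' value table, 2 other filters and the mean of probes. Further ones were slide and replicate number as blocks, slide 1 alone and leaving out each array. After seeing the data, a run with dim Lif values set at the lowest signal called well above background was added. In the value table deposited by the authors, each array's processed intensity was divided by 1 constant; it is linear and not centred on genes, with column medians of 0.0638 to 0.0750.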

Additional observations from a re-analysis of the deposited data

How the results depend on the processing

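Of all features, 4 passed limma's adjusted threshold as reported. The count was 1 with quantile normalization, 9 with normexp and quantile normalization, 1 where a probe had to be well above background on all 6 arrays, 0 without a filter (2626 at an unadjusted p under 0.05) and 0 within slide 1 (1178). It was 4 in the authors' value table, 6 with the mean of probes and 3 with slide as a block. With the replicate block it was 0 (2138 at an unadjusted p under 0.05); same-numbered arrays deviated together with correlations of -0.025, 0.15 and 0.071, so the numbers were not taken to pair samples. Leaving out single arrays gave 0 (without WT replicate 1, 1548 at an unadjusted p under 0.05) to 7 (without WT replicate 2), with 1 without KO replicate 3 and 2 without KO replicate 1 or WT replicate 3. The cause was not tested. The ERK lists had 0 calls in every alternative run. The number of the 8 genes with a higher mean in KO was 6 as reported and 5 to 7 otherwise. Under normexp with quantile normalization the Etv1 difference was 0.83, that of Lif 0.23 and that of Etv4 0.11, and under the mean of probes Etv1 was 0.60 and Etv4 0.34. Dim signal limits Lif, Il17rd and the second probes of Etv1 and Etv4.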
